A study of Mus musculus with 6 samples.

Results

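The Dlk1-Meg3 locus is an imprinted gene cluster on mouse chromosome 12. Its genes Dlk1, Meg3, Rtl1, Rian, Mirg and Dio3 were examined in whole brain of mice fed a liver-derived supplement. The 6 genes were taken as the rows whose Ensembl identifiers carry these symbols in GENCODE M21, and all 6 were listed among the 60354 features of the count tables. RNA was sequenced from 3 PLDP mice and 3 control mice, all male C57BL/6NCrSlc animals that were 16 weeks old when feeding began. PLDP, a protease-treated decomposition product of porcine liver, made up 20% of the modified AIN-93M feed of PLDP mice, and control mice received a modified AIN-93M diet of adjusted calorie content. Each diet was given to 13 mice for 16 weeks. RNA was taken after behavioral tests, during which the PLDP diet was withheld, so each value describes tissue after both the diet and the tests. The comparison asked which brain transcripts differed between the diets.

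In an imprinted locus, each gene is read mainly from the chromosome inherited from 1 parent. At Dlk1-Meg3, the protein-coding genes Dlk1, Rtl1 and Dio3 are read mainly from the paternal chromosome, and the noncoding RNAs Meg3, Rian and Mirg from the maternal chromosome. The noncoding transcripts lie in the same direction and contain many snoRNA and miRNA genes. In brain, Meg3 is an abundant nuclear RNA of neurons. All mice were of a single inbred strain, so the counts do not tell the parental copies apart.

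Libraries held 18797061 to 23938729 counts per mouse. A gene was tested when it passed a filter on low counts, which left 18580 genes. A gene was called where the unadjusted p of edgeR's quasi-likelihood test was under 0.05, the threshold the study used, and 1598 genes (8.6%) were called between the diets. Of these, 913 (4.91%) were higher and 685 (3.69%) lower in PLDP mice, and 6 genes (0.0323%) had a Benjamini-Hochberg adjusted p under 0.05, a number that depended on single mice and on the tool. The median log2 fold change over all tested genes was -0.00. Levels are counts per 1000000 (CPM) scaled by library composition, and fold changes are PLDP over control. The labels do not say whether mice shared cages or litters, so each p measures the spread between these 6 mice only.

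Of the locus genes, Meg3 and Mirg were higher in PLDP mice at the unadjusted threshold. Neither passed adjustment over all genes in the main analysis. Rian, Dlk1 and Dio3 did not pass the test. Rtl1 had no count in any mouse. Thus 2 of the 5 tested members were called, both higher, where 8.6% of all tested genes were called in either direction and 4.91% were called higher. These members were picked with earlier results of the same libraries known, and neighboring transcripts can share reads, so the count is a description.

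Meg3 lies at chr12:109541001-109571726 (GRCm38, plus strand), a long intergenic noncoding RNA gene (ENSMUSG00000021268) with 18089 exonic bases. Its level was 2923, 3031 and 3024 CPM in control mice 2, 5 and 10, and 3080, 3413 and 3471 CPM in PLDP mice 17, 22 and 26. Every PLDP mouse was above every control mouse, with PLDP mouse 17 lying nearest to the controls. The mean was 2993 ± 60.4 CPM in control mice and 3321 ± 211 CPM in PLDP mice (SD, n = 3 each). The fold change was 1.11 (95% interval 1.05 to 1.17), or 0.15 on the log2 scale with a standard error of 0.04 (edgeR adjusted p = 0.248). Over all 18580 genes, 7.29% had every PLDP mouse above every control mouse and 6.9% had every PLDP mouse below. In bulk tissue, more cells that contain an RNA and more of that RNA per cell cannot be told apart.

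The window around the Meg3 start is shown because Meg3 is the first gene of the maternal noncoding series and was among the called genes. It covers 250 bases before and 50 bases after the RefSeq start, at chr12:109540746-109541045 on the plus strand (RefSeq, GRCm38.p6). Capitals mark TGCCGC, the core letters bound by ZFP57; TGACGTCA, the cyclic AMP response element; and TATAAA, the TATA box, each searched on both strands.

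Meg3 promoter: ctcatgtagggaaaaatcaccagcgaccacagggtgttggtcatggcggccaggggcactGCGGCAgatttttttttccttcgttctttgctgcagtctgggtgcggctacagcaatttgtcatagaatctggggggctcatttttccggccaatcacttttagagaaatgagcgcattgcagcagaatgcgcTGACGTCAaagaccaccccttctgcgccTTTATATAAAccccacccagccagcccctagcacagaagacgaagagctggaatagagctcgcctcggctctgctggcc

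The TGCCGC match began 190 bases before the start, the TGACGTCA match 57 bases before it and the TATAAA match region 29 bases before it, where matches on the opposite strands overlap. Among 32851 RefSeq promoter windows of this length, 3813 (11.6%) held TGCCGC, 588 (1.79%) held TGACGTCA and 4473 (13.6%) held TATAAA. The printed Meg3 window contained 13 CpG dinucleotides, against a median of 7 over those windows. RefSeq lists a further Meg3 start inside the gene, whose window at chr12:109545148-109545447 contained 1 CpG and none of the 3 motifs. The windows of Dlk1, Rian and Mirg contained none of the 3 motifs, the Mirg window lying at chr12:109734731-109735030, inside the gene as M21 draws it, since RefSeq places its start further along. The window of Dio3 held TATAAA 31 bases before its start. These are matches of letters, and binding was not measured.

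Mirg lies at chr12:109729764-109749460 (plus strand), a host transcript for miRNAs (ENSMUSG00000097391) with 7292 exonic bases. Its level was 32.3, 30.03 and 33.998 CPM in control mice 2, 5 and 10, and 41.6, 37.7 and 42.6 CPM in PLDP mice 17, 22 and 26. The diets did not overlap, the lowest PLDP mouse lying above the highest control mouse. The mean was 32.1 ± 1.99 CPM in control mice and 40.6 ± 2.56 CPM in PLDP mice (SD, n = 3 each). The fold change was 1.26 (95% interval 1.15 to 1.39), or 0.34 on the log2 scale with a standard error of 0.07 (edgeR adjusted p = 0.0785). These values rest on 662 to 900 counts per mouse.

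Rian lies between Meg3 and Mirg, at chr12:109603940-109661716 (plus strand), and hosts snoRNA genes (ENSMUSG00000097451). Its level was 525.2, 576.1 and 542.1 CPM in control mice and 568.8, 612.3 and 548.1 CPM in PLDP mice, in the same order of mice. The diets overlapped, since control mouse 5 was above PLDP mice 17 and 26. The log2 fold change was 0.07 with a standard error of 0.04 and a 95% interval from -0.02 to 0.17 (edgeR adjusted p = 0.684). Rian passed the unadjusted threshold when control mouse 5 was left out or when PLDP mouse 26 was left out, with a log2 fold change of 0.11 in both cases. Without control mouse 2 its log2 fold change was 0.04 and without PLDP mouse 22 it was 0.03, and neither passed.

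**Figure D1:**
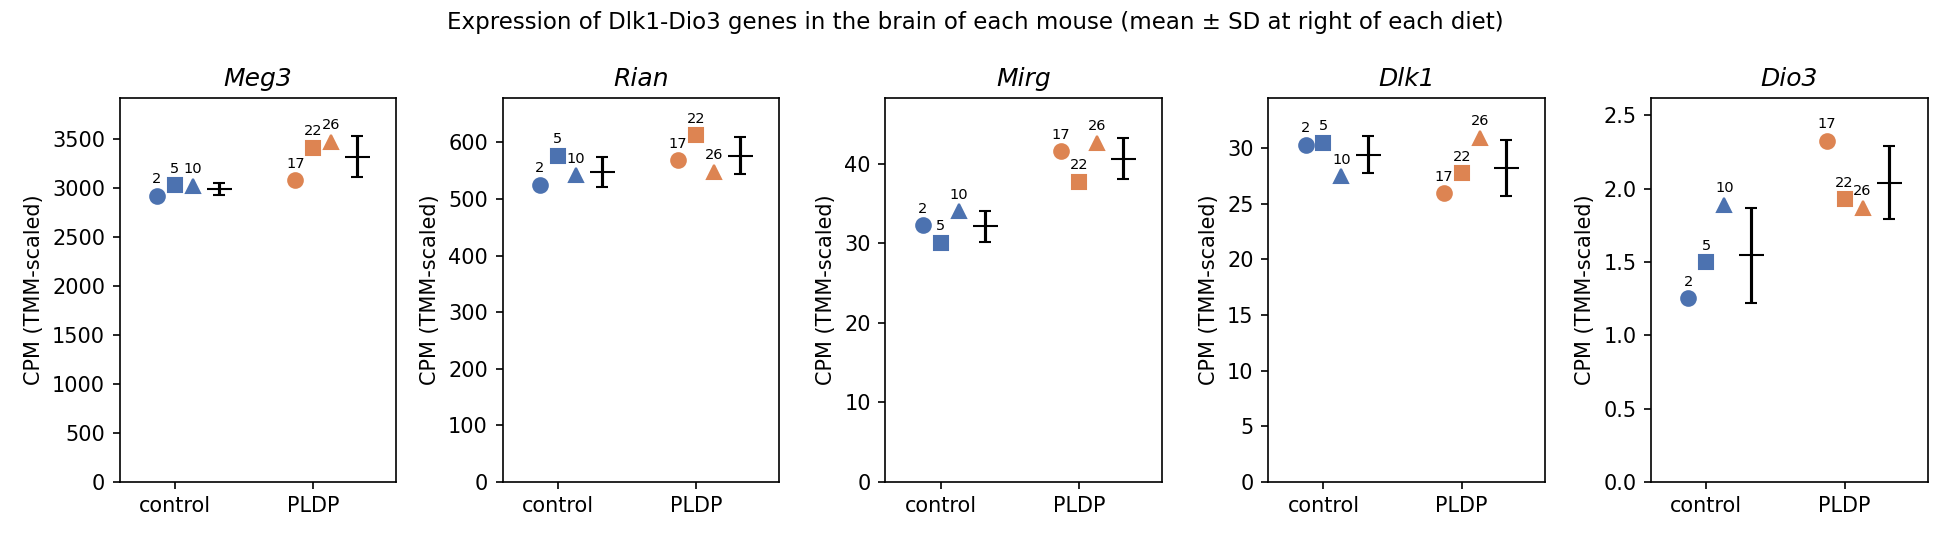
Level of each tested locus gene in each mouse (CPM) in control and PLDP mice, with a point for each mouse and the group mean and SD. Meg3 and Mirg show no overlap between the diets, and Rian, Dlk1 and Dio3 overlap. Rtl1, which had no count in any mouse, is not drawn.

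Dlk1, which encodes a transmembrane protein of the Delta-Notch family, lies at chr12:109452823-109463336 (plus strand, ENSMUSG00000040856). Its level was 30.3, 30.5 and 27.5 CPM in control mice and 25.9, 27.8 and 30.9 CPM in PLDP mice. The lowest and the highest value both came from PLDP mice. The log2 fold change was -0.06 with a standard error of 0.07 and a 95% interval from -0.22 to 0.09 (edgeR adjusted p = 0.864). Leaving out 1 mouse moved it between -0.13 (PLDP mouse 26 left out) and -0.01 (PLDP mouse 17 left out), and it passed in no case.

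Dio3, the deiodinase that inactivates thyroid hormone, lies at chr12:110279068-110281097 (plus strand, ENSMUSG00000075707). Its level was 1.25, 1.497 and 1.89 CPM in control mice and 2.32, 1.93 and 1.87 CPM in PLDP mice. Control mouse 10 was above PLDP mouse 26, so the diets overlapped. The log2 fold change was 0.40 with a standard error of 0.22 and a 95% interval from -0.06 to 0.87 (edgeR adjusted p = 0.634). Dio3 had only 26 to 50 counts per mouse, and without control mouse 10 it passed the unadjusted threshold with a log2 fold change of 0.57. In the other leave-outs of 1 mouse it did not pass, with log2 fold changes from 0.27 without control mouse 2 to 0.45 without PLDP mouse 26.

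Rtl1, a retrotransposon-derived gene known for its role in placenta, lies on the minus strand at chr12:109589193-109600330 (ENSMUSG00000085925). It had 0 counts in all 6 mice. A count of 0 allows up to 3 counts per library, or 0.126 to 0.160 CPM, a limit that covers counting error only. Rtl1 overlaps 7 annotated miRNA genes, 6 of them on the opposite strand, and how shared reads were treated is not given in the sources used here.

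Per kilobase of exon, Meg3 was the most abundant member, at 165.4 CPM per kb in control mice and 183.6 CPM per kb in PLDP mice. Rian followed at 30.04 and 31.6 CPM per kb. Below these, Dlk1 and Mirg lay close together, and their order differed between the diets: Dlk1 was at 5.2025 and Mirg at 4.40 CPM per kb in control mice, against 4.99 and 5.57 CPM per kb in PLDP mice. Dio3 was lowest of the detected members, at 0.76 and 1.006 CPM per kb. By mean CPM, without regard to length, Meg3 was 8th of 60354 features and took 0.291% to 0.345% of all counts in a mouse. Among 9833 long noncoding RNA genes, Meg3 ranked 1st, Rian 5th and Mirg 44th.

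Mirg and Meg3 were set against each other within each mouse, a comparison that library scaling does not touch. Per 100 Meg3 counts, Mirg had 1.104, 0.991 and 1.12 counts in control mice and 1.35, 1.11 and 1.23 in PLDP mice. The ratios overlapped, and their log2 difference was 0.19 (two-sided exact permutation p = 0.2, the smallest possible being 0.1). Thus the fold changes of Mirg and Meg3 were not shown to differ. Per 100 Meg3 counts, Rian had 18.0, 19.01 and 17.9 counts in control mice and 18.5, 17.9 and 15.8 in PLDP mice, with a log2 difference of -0.08 (exact permutation p = 0.5). Rian per Mirg count was 16.3, 19.2 and 15.9 in control mice and 13.7, 16.2 and 12.9 in PLDP mice, with a log2 difference of -0.27 (exact permutation p = 0.2). With 3 against 3 mice, none of these 3 tests could reach 0.05.

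**Figure D2:**
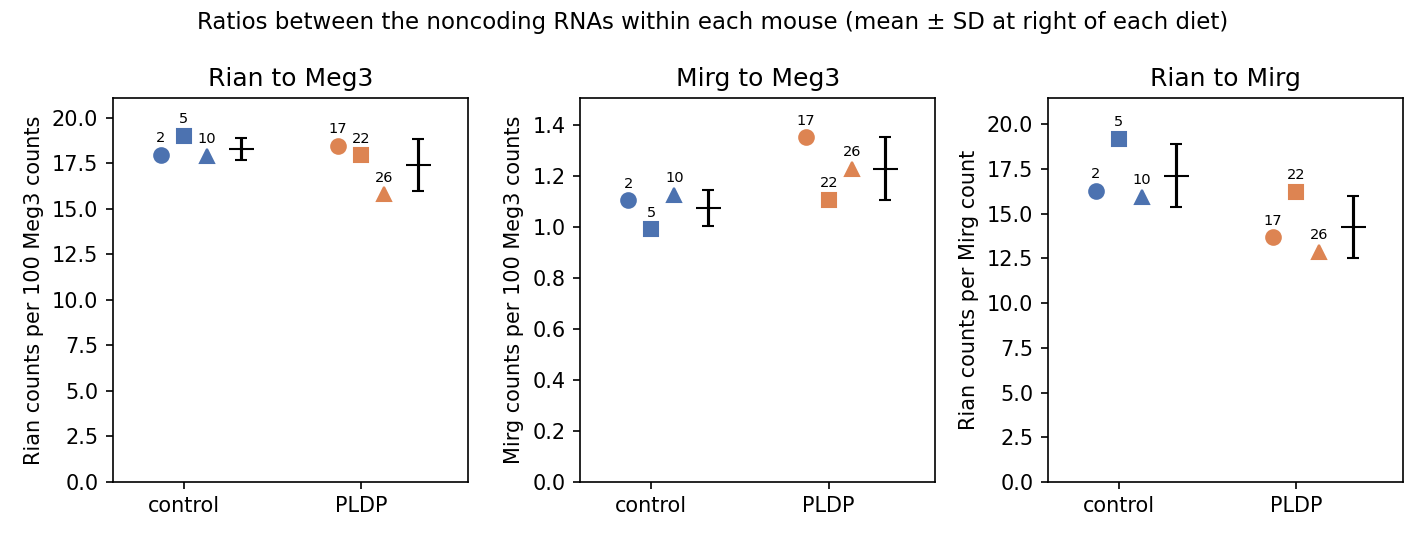
Ratios between the noncoding RNAs within each mouse, with control and PLDP mice side by side. The diets overlap in all 3 ratios.

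Each member was then followed from mouse to mouse, as a description. On the log2 scale around its own mean, Meg3 was highest in PLDP mouse 26 at 0.14, where Rian was at -0.03. Mirg was also highest in PLDP mouse 26, at 0.24, and Rian was highest in PLDP mouse 22, at 0.13. Over the 6 mice the SD of log2 level was 0.10 for Meg3, 0.08 for Rian, 0.20 for Mirg, 0.10 for Dlk1 and 0.31 for Dio3.

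Likeness of profile was measured as the root mean square difference of centred log2 levels over the 6 mice, among 14512 genes. The genes most like Meg3 were Bhlhe40, Psme4, Tcp11l1, Ttbk1 and Smad3, with differences from 0.011 to 0.017, and those most like Mirg were Popdc3, Thbd, Mt2, Elk4 and Amigo3, from 0.037 to 0.058. For Rian they were Fras1, Rrs1, Sde2, Agk and Necab3, from 0.017 to 0.026, and for Dlk1 they were Ankrd34b, Utp11, Eapp, Neurod6 and Nrg1, from 0.014 to 0.030. Meg3 and Mirg differed by 0.139, which made Mirg 8275th in likeness to Meg3 and Meg3 691st in likeness to Mirg. The measure is not scaled for the size of the swing, and the SD of log2 level was 0.20 for Mirg against 0.10 for Meg3. Meg3 and Rian differed by 0.084, which made Rian 1973rd in likeness to Meg3 and Meg3 3041st in likeness to Rian. These orders are descriptions over 6 points that share libraries and diets.

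From the start of Dlk1 to the end of Dio3, 828275 bases, M21 annotates 118 features, of which 109 were listed, 61 had a count and 10 were tested. Beside the 5 tested members, these were Mir433, Mir1188, the snoRNA gene Gm24564, the noncoding RNA B830012L14Rik and the pseudogene Gm3379, and none of these passed the test. B830012L14Rik, which lies between Rian and Mirg, had 36, 40 and 53 counts in control mice and 70, 47 and 61 in PLDP mice, with a log2 fold change of 0.46 and a standard error of 0.23 (edgeR adjusted p = 0.603). The diets overlapped for B830012L14Rik, and its call depended on the mice: it passed the unadjusted threshold without control mouse 10 (log2 fold change 0.66) and without PLDP mouse 22 (0.68). It did not pass without any of the other mice, with values down to 0.33 without PLDP mouse 17.

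Within 1 Mb on either side of the interval, 31 genes were tested and 1 was called, against 8.6% of all tested genes. It was the pseudogene Mpc1-ps, which was lower (log2 fold change -0.20, standard error 0.08, edgeR adjusted p = 0.456). The nearest tested protein-coding neighbors were Begain upstream, with a log2 fold change of 0.02 (edgeR adjusted p = 0.94), and Ppp2r5c downstream, with 0.00 (edgeR adjusted p = 0.995). The median log2 fold change was 0.17 over the 10 tested genes of the interval and 0.01 over the 31 flanking genes. The interval and its flanks were not tested against each other.

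**Figure D3:**
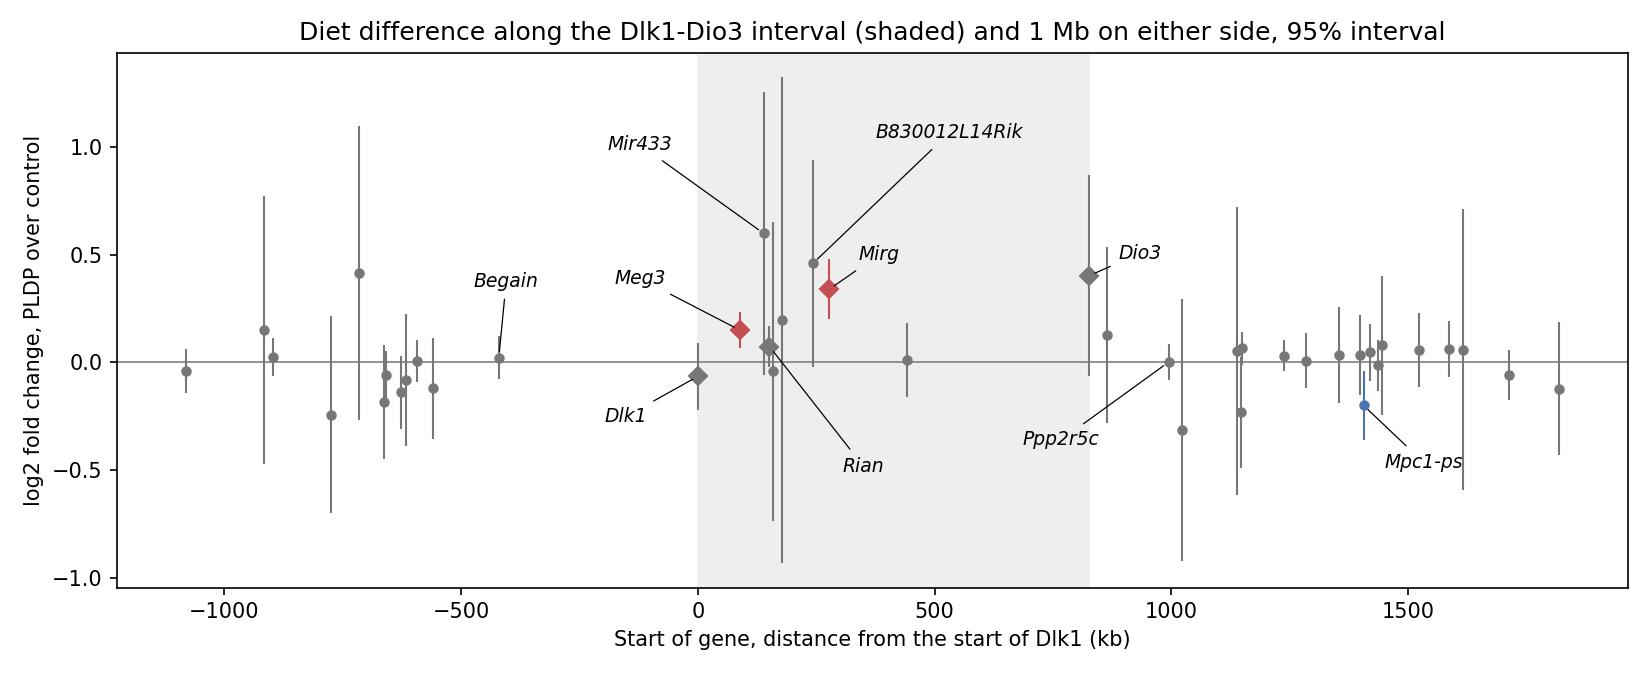
Log2 fold change of PLDP over control with its 95% interval for each tested gene, by distance from the start of Dlk1 in kb, with the interval shaded, members as diamonds, called higher genes in red and called lower genes in blue. Meg3 and Mirg are the called genes inside the interval, and Mpc1-ps is the called gene outside it.

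The miRNA genes of the interval were sparsely counted. Poly(A) mRNA libraries are not made to capture mature miRNAs, which are short and lack a tail. Of 67 listed miRNA genes, 37 had a count and 2 were tested. Together they had 63, 81 and 89 counts in control mice and 103, 108 and 75 in PLDP mice, or 3.67 ± 0.64 against 4.44 ± 0.40 CPM (SD, n = 3 each, two-sided exact permutation p = 0.2, a test chosen after the counts were seen). The 15 miRNA genes inside Mirg and the 2 inside Meg3 had no count in any mouse, although their host transcripts were well counted.

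The 7 miRNA genes over Rtl1 had 24, 28 and 26 counts in control mice and 34, 42 and 33 in PLDP mice, or 1.23 ± 0.06 against 1.70 ± 0.10 CPM (SD, n = 3 each). The diets did not overlap for this sum, nor for that of the 30 miRNA genes between Rian and Mirg, which was 0.565 ± 0.281 against 0.828 ± 0.034 CPM (SD, n = 3 each). For the latter sum, control mouse 2 was far below the others at 0.241 CPM (5 counts), while control mice 5 and 10 were at 0.726 and 0.727 CPM and PLDP mice at 0.790 to 0.855 CPM. The 4 miRNA genes within Rian overlapped between the diets, at 1.28 ± 0.24 against 1.40 ± 0.40 CPM (SD, n = 3 each). The 8 between Meg3 and Rtl1 also overlapped and had the lower mean in PLDP mice, at 0.601 ± 0.152 against 0.509 ± 0.274 CPM (SD, n = 3 each). None of these 4 sums was tested, and the groupings were made after the counts were seen. Over all mice together, Mir433 held 104 of the 187 counts over Rtl1, with 13, 14 and 14 counts in control mice and 15, 29 and 19 in PLDP mice. It did not pass the test (log2 fold change 0.60, standard error 0.31, edgeR adjusted p = 0.625). Without PLDP mouse 17 it passed the unadjusted threshold, with a log2 fold change of 0.79, and without PLDP mouse 22 it did not, with 0.39.

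RefSeq lists 61 miRNA genes with 114 mature miRNAs and 104 seeds in the interval, where the seed is bases 2 to 8 of the mature miRNA. The first sequences shown are of miRNAs that lie opposite Rtl1, whose hairpin genes held the counts above, with the seed in capitals. Of the 13 mature miRNAs over Rtl1, 11 had their full reverse complement in its annotated transcript.
miR-433-3p: aUCAUGAUgggcuccucggugu
miR-127-3p: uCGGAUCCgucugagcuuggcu
miR-136-5p: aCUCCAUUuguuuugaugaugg

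Mirg, which was called higher, spans 14 of the RefSeq miRNA genes, with 26 mature miRNAs and 25 seeds. The next sequences show miRNAs from that host, again with the seed in capitals. They include the only pair within Mirg that shares a seed, miR-453 and miR-496a-5p.
miR-134-5p: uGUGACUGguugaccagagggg
miR-410-3p: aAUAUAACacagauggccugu
miR-382-5p: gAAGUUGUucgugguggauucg
miR-453: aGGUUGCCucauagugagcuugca
miR-496a-5p: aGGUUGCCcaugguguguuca
Their mature levels were not measured, so the difference in Mirg is one of its host transcript.

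Of 60 tested imprinted genes outside the locus, 2 were higher and 1 lower, or 5% called against 8.6% of all tested genes, with a median log2 fold change of -0.00. Kcnq1ot1, the noncoding RNA of the Kcnq1 imprinted domain, was at 31.7 ± 2.13 CPM in control mice and rose to 43.95 ± 5.02 CPM in PLDP mice (SD, n = 3 each; log2 fold change 0.47, standard error 0.08, edgeR adjusted p = 0.0369). Slc22a3 was also higher (0.56, edgeR adjusted p = 0.448). Cdkn1c, a cell cycle inhibitor of the same domain, was lower (log2 fold change -0.25, edgeR adjusted p = 0.448).

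Among genes that maintain imprints or belong to Polycomb complexes, 2 of 27 tested were higher and none lower, or 7.41% called against 8.6% of all tested genes, with a median log2 fold change of -0.01. These were Aff3 (0.16, edgeR adjusted p = 0.497) and the Polycomb cofactor Jarid2 (0.13, edgeR adjusted p = 0.56). Zfp57, which protects imprints, had a log2 fold change of -0.00 (edgeR adjusted p = 0.996).

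Dlk1 belongs to the wider Notch pathway, where 4 of 34 tested genes were higher and 1 lower, or 14.7% called against 8.6% of all tested genes, with a median log2 fold change of -0.01. The higher genes were the receptor Notch4 (log2 fold change 0.33, edgeR adjusted p = 0.399), the Dlk1 paralog Dlk2 (0.19, edgeR adjusted p = 0.448), Rfng (0.13, edgeR adjusted p = 0.448) and Numbl (0.11, edgeR adjusted p = 0.461). Nrarp, a feedback inhibitor of Notch, was lower (-0.21, edgeR adjusted p = 0.448). Dio3 acts on thyroid hormone, and of 32 tested genes of that pathway 2 were higher and 2 lower, or 12.5% called against the same 8.6%, with a median log2 fold change of -0.01. Nrgn, a neuronal protein, was among the higher genes (log2 fold change 0.09, edgeR adjusted p = 0.519). The lower genes were Mbp (-0.12, edgeR adjusted p = 0.448), a myelin protein, and Ttr (-0.22, edgeR adjusted p = 0.26), the thyroid hormone carrier that is also a choroid plexus marker. Dio2, which activates the hormone, had 65.2 ± 3.99 CPM in control mice and 71.2 ± 7.61 CPM in PLDP mice (SD, n = 3 each, edgeR adjusted p = 0.632).

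Meg3 is a nuclear RNA, and of 15 tested nuclear long noncoding RNAs 3 were higher and none lower, against 4.91% higher among all tested genes, with a median log2 fold change of 0.06. Malat1, an abundant RNA of nuclear speckles, was at 1057 ± 48.98 CPM in control mice and rose to 1293 ± 58.2 CPM in PLDP mice (SD, n = 3 each; log2 fold change 0.29, edgeR adjusted p = 0.0318). The other two were Kcnq1ot1 and Snhg11 (0.08, edgeR adjusted p = 0.565). Summed over the list, these RNAs lay at 3893 to 4137 CPM in control mice and 4237 to 4426 CPM in PLDP mice, without overlap. Most of the sum came from Malat1 and from Snhg11, which averaged 1670 CPM in control mice and 1760 CPM in PLDP mice. M21 types Snhg11 as protein-coding. The part of this difference in the Meg3 and Mirg values was not tested. Over all 1390 tested long noncoding RNA genes, 36 (2.59%) were higher and 41 (2.95%) lower, with a median log2 fold change of -0.02. Of 20 tested host genes of small RNAs elsewhere in the genome, 10% were called against 8.6% of all tested genes, and these 2 were higher, Mir99ahg (0.53, edgeR adjusted p = 0.306) and Mir124a-1hg (0.17, edgeR adjusted p = 0.319).

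Markers of some brain regions moved with the diets. Of 13 tested brainstem markers 9 were lower and none higher, or 69.2% called, where 8.6% of all tested genes were called and 3.69% were lower. Their sum was 164.0 to 181.6 CPM in control mice and 99.8 to 135.1 CPM in PLDP mice. Among them were the glycine transporter Slc6a5 (log2 fold change -0.66, edgeR adjusted p = 0.0369), the glycine receptor Glra1 (-0.50, edgeR adjusted p = 0.0592) and Hoxb3 (-1.05, edgeR adjusted p = 0.0785). Of 11 choroid plexus markers 3 were lower and none higher, namely Enpp2, Ttr and Folr1, or 27.3% called against the same shares, with a sum of 1275 to 1357 CPM in control mice and 980.2 to 1255 CPM in PLDP mice. Most of the choroid plexus sum came from Ttr, at means of 708 CPM in control mice and 607 CPM in PLDP mice, and Enpp2, at 510 and 428 CPM. Neither the brainstem nor the choroid plexus sum overlapped between the diets, and the part of these markers in the Meg3 and Mirg values was not tested.

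The sums of the other marker lists overlapped between the diets, and their called genes stand against 8.6% called, 4.91% higher and 3.69% lower among all tested genes. Neuron markers summed to 6698 to 6899 CPM in control mice and 6705 to 6912 CPM in PLDP mice, with Syn1 higher and Nefl lower among 9 tested (22.2% called). Of 12 tested glia markers 4 were lower, among them Mbp, Aqp4 and P2ry12 (33.3% called), with sums of 4795 to 5012 CPM and 4418 to 4878 CPM. Of 14 tested hypothalamus markers Cartpt was higher and Gal and Pmch were lower (21.4% called), with sums of 208.1 to 215.5 CPM and 208.0 to 215.4 CPM. Nr4a2 was higher among 10 tested markers of dopamine and noradrenaline neurons (10% called), and Pecam1 was higher and Ogn lower among 12 of meninges and vessels (16.7% called). None of 6 tested blood markers was called. Of 11 pituitary markers only Chga, which neurons also express, passed the filter, and it made up nearly all of their sum of 207.0 to 212.2 CPM in control mice and 203.2 to 226.9 CPM in PLDP mice. Of the pituitary markers below the filter, only Lhb and Pou1f1 were at 0 in all mice. The others, among them Gh, Prl, Cga, Fshb and Tshb, had some counts.

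Across 14 other settings of the analysis, Meg3 and Mirg stayed past the unadjusted threshold and higher in PLDP mice. The log2 fold change of Meg3 ranged from 0.12 to 0.20 and that of Mirg from 0.29 to 0.39. Their adjusted p, by edgeR, DESeq2 or limma as the setting had it, ranged from 0.000221 to 0.788 for Meg3 and from 0.000378 to 0.446 for Mirg. Whether either gene passed adjustment thus depended on the setting.

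**Figure D4:**
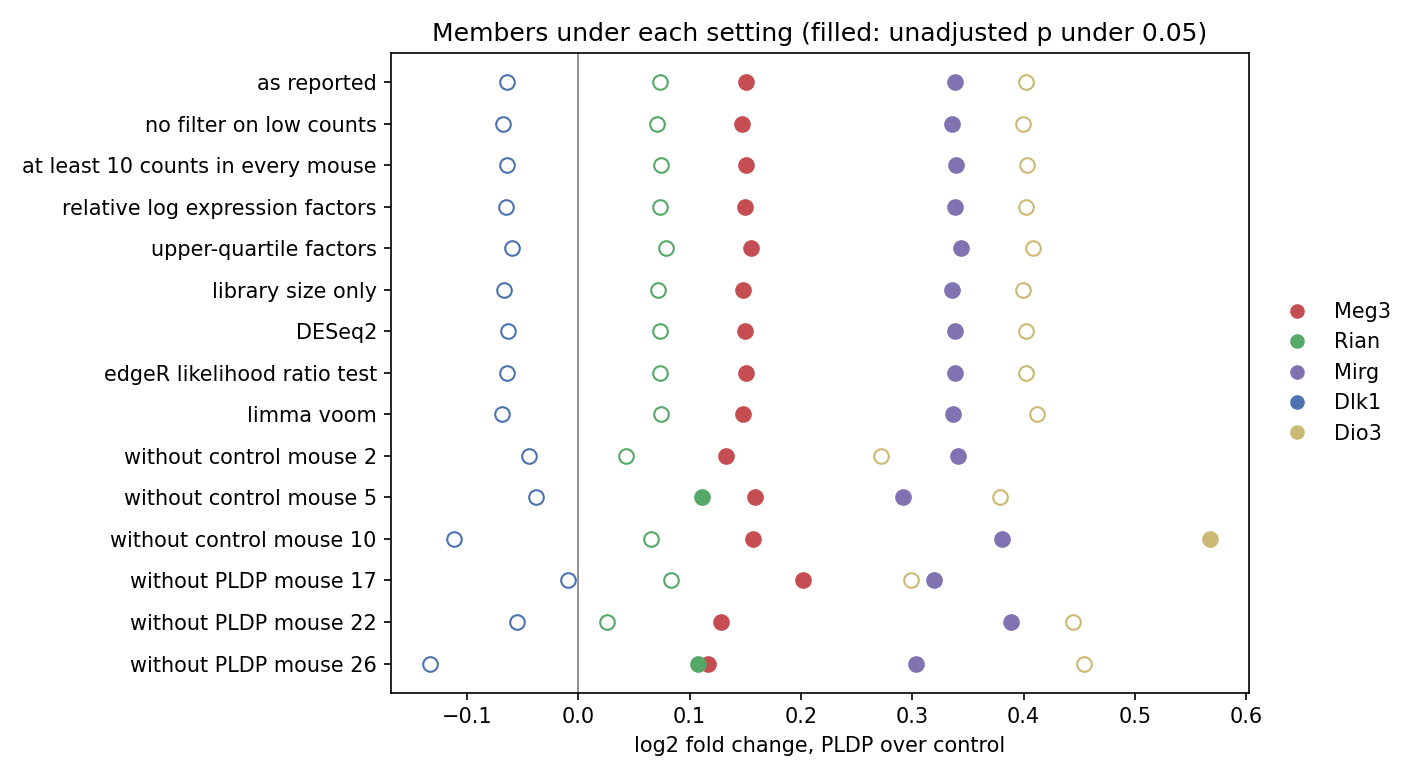
Log2 fold change of each tested member under the main analysis and 14 other settings, including the 6 that each leave out 1 mouse, with filled points where the unadjusted p was under 0.05. Meg3 and Mirg are filled and lie above 0 in every setting shown. Rian and Dio3 also lie above 0 in every setting, and Dlk1 lies below 0 in every setting.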

How the data were processed

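Whole brain poly(A) RNA of 3 control and 3 PLDP mice was sequenced from stranded libraries. The deposited files hold raw read counts per gene, and the submitters' processing notes name cutadapt 2.9, HISAT2 2.2.0, featureCounts 2.6.0 and DESeq2 1.6.3. The builds GRCm38 and GRCh38 are both named there, with no role. The strand setting, annotation and treatment of shared reads are not given in the sources used here, so reads of overlapping genes in the locus may be split or dropped.

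Of 55034 Ensembl identifiers in the files, 54777 matched GENCODE M21, and 5320 numbered features were not named. Genes were filtered with filterByExpr (minimum count 10, minimum total 15). TMM scaled the libraries, and the quasi-likelihood test (glmQLFit, glmQLFTest) of edgeR 4.0.16 in R 4.3.3 was fitted with diet as the only term. P-values were adjusted by Benjamini-Hochberg over all 18580 genes. CPM used the TMM-scaled library sizes. Ratios were tested by exact permutation over mice. Totals of 18797061 to 23938729 counts set the precision.

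Genes were named as the members, the tested features of the interval, the nearest tested neighbors, the called gene of the flanks, called genes of the gene and marker lists (at least the 3 with the smallest p in each direction; 2 are not reported here) and the 5 genes most like Meg3, Rian, Mirg and Dlk1. The members and lists were chosen with earlier results of these data known. Alternatives covered filters, scaling, other tests (DESeq2 1.42.0, limma 3.58.1) and leaving out each mouse. Promoter and miRNA sequences came from RefSeq (GRCm38.p6). Transcript lengths are unions of M21 exons.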

Additional observations from a re-analysis of the deposited data

How the results depend on the processing

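The number of called genes was 1598 and fell to 926 with DESeq2 (564 higher and 362 lower). Leaving out single mice gave 1133 to 2365 called genes. The number with an adjusted p under 0.05 was 6 with edgeR, and it was 180 without the low-count filter, 75 by the likelihood ratio test, 24 with DESeq2, 7 with upper-quartile factors, 3 with limma voom and 1 with library size only. Leaving out 1 mouse gave 1 (control 2 or 10), 0 (control 5, with 1226 genes past the unadjusted threshold in edgeR), 182 (PLDP 17), 14 (PLDP 22) and 13 (PLDP 26). Meg3 and Mirg kept their direction and stayed past the unadjusted threshold in all 14 alternatives. The number of called members was 2, and 2 to 3 when a mouse was left out, the third being Rian without control mouse 5 or PLDP mouse 26 and Dio3 without control mouse 10. Direction turned for features with few counts or a fold change near 0 when a mouse was left out: the log2 fold change ranged from -0.35 to 0.17 for Mir1188, from -0.22 to 0.63 for Gm24564 and from -0.037 to 0.076 for Gm3379, and the cause was not tested. B830012L14Rik passed the threshold without the low-count filter (log2 fold change 0.46) and by edgeR's likelihood ratio test (0.46). The ratios kept their direction in every alternative run. No paired analysis was possible because the control and PLDP mice carry different numbers. Counts were few for Dio3 and the miRNA genes and 0 for Rtl1, which limits the precision of their values.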
